A study of Mus musculus with 10 samples.

Results

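The potassium channel genes that set the resting potential and firing of neurons were compared between 2 inbred mouse strains in the nucleus accumbens (NAc), a ventral part of the striatum. Members were all protein-coding genes whose symbol begins with Kcn, without the inwardly rectifying Kcnj channels and the Kcnip calcium sensors. The annotation held 75 such genes, and 71 of them were among the 29883 genes of the count table. Kcna7, Kcnk16, Kcnk18 and Kcnmb3 were not analysed here. Of the 71 genes, 60 had a mean of at least 100 normalized counts per library, a normalized count being the reads of a gene scaled to a library of average size.

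Libraries were made from polyadenylated RNA of 5 C57BL/6J (B6) and 5 DBA/2J (D2) mice, 1 library per mouse. All mice were ethanol-naive males of 9 weeks, housed in groups and given no treatment, so that the groups differed by strain. The series was built around strain differences that exist without ethanol. Each strain is inbred, so the 5 mice of a strain share a genotype and the comparison speaks of these strains and not of single variants. Reads of both strains were aligned to the B6 genome, and a lower D2 level cannot be told apart from D2 reads that fail to align at variant sites.

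A potassium channel is a ring of pore domains that lets potassium leave the cell and so brings the membrane back toward rest. Voltage-gated channels of the Kv1 to Kv4 families repolarize the action potential, Kv7 channels carry the M current that holds back repetitive firing, and the Kv10 to Kv12 channels include the erg channels. BK channels open on depolarization and calcium together, SK channels on calcium alone, and 2-pore channels leak potassium at rest. Striatal projection neurons rest at a strongly negative potential, and their firing is delayed by slowly inactivating potassium current. BK channels are also known as a target of ethanol.

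The pore is recognised by its selectivity filter, whose glycine, aromatic or hydrophobic residue and glycine are written in the coding strand as GGNTANGGN (glycine, tyrosine, glycine) or GGNTTNGGN (glycine, phenylalanine or leucine, glycine). The filter codons are shown for members on which the results turn, because the filter is what pore-forming members share. Each run holds 24 bases of the coding strand read from the GRCm39 genome with GENCODE M39 coding sequences, and capitals mark the 9 bases of the motif.
Kcnf1: accacagtgGGCTATGGTgacatc
Kcns1: accacagtgGGCTATGGGgatgtg
Kcng3: actacagttGGCTATGGAgatatg
Kcnq3: gccaccattGGTTATGGAgacaag
Kcnh2: accagcgtgGGCTTTGGCaatgtc
Kcnh6: actagtgtgGGCTTCGGCaatgtg
Kcnk2: acgaccattGGATTTGGAgactac
On the minus strand lie the runs of Kcnf1 (chr12:17225056-17225079), Kcns1 (chr2:164006768-164006791) and Kcng3 (chr17:83895337-83895360). So do those of Kcnq3 (chr15:65895574-65895597), Kcnh2 (chr5:24530547-24530570) and Kcnk2 (chr1:188988772-188988795), while that of Kcnh6 (chr11:105909899-105909922) is on the plus strand. All 7 runs lie within a coding exon. The run of Kcnk2 is the second of its matches to GGNTTNGGN. A match to these letters is a description of the sequence and no measure of function.

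Searched in frame and on the coding strand only, GGNTANGGN occurred in 49 of the 75 genes of the annotation (65.3%) and in 6.08% of 21770 protein-coding genes. GGNTTNGGN occurred in 23 of 75 (30.7%) and in 12.2% of all genes. All 12 genes of the Kv2 and silent families, all 4 of Kv3, all 3 of Kv4 and all 5 of Kv7 held GGNTANGGN. The 8 Kv10 to Kv12 genes held GGNTTNGGN, and 1 of them, Kcnh4, also held GGNTANGGN near the start of its coding sequence. The 14 genes of 2-pore channels held each motif in 11 genes. None of the 6 Kcne and Kcnrg genes, which encode accessory subunits and a regulator, held either motif. The runs of Kcnf1, Kcns1 and Kcng3, which do not make channels alone, all code for glycine, tyrosine and glycine.

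Depth was 96977262 to 116776714 counted reads per library. Markers of striatal projection neurons were high in all libraries, summing to 4078 to 5341 reads per 1000000 counted reads (CPM) in B6 and 3516 to 4217 CPM in D2, with Ppp1r1b, Penk and Drd1 among them. Of 10 such markers 6 were lower in D2 and 0 higher by edgeR (7 at an unadjusted p under 0.05, 7 called by DESeq2), and 8 were lower without B6 replicates 3 and 5. B6 replicates 3 and 5 stood apart. Their 8 markers of cortical projection neurons summed to 995 and 1012 CPM, against 157 to 239 CPM in the other 3 B6 mice and 309 to 670 CPM in the 5 D2 mice, and all 8 were above 1 CPM in some library. Of 6 oligodendrocyte markers 4 were lower in D2 with all mice (4293 to 6202 CPM in B6, 3242 to 4734 CPM in D2). The same pair had the highest B6 oligodendrocyte sums (6202 and 6171 CPM) and the lowest B6 striatal sums (4109 and 4078 CPM), and without it 0 oligodendrocyte markers were called by edgeR (3 at an unadjusted p under 0.05). The part of these cells in the results was not tested. In bulk tissue, fewer cells of a type and less RNA per cell cannot be told apart. Strain differences are therefore given with all 10 mice and, where the call or size is of interest, also without B6 replicates 3 and 5. Neither fit is matched for cortex markers. Of these 8, edgeR called 0 with all mice (1 at an unadjusted p under 0.05). Without B6 replicates 3 and 5 it called 6, all higher in D2, against 9.68% of all genes. That fit sets B6 mice of 157 to 239 CPM against D2 mice of 309 to 670 CPM.

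Levels can be compared between genes only per length, here as RPKM (the CPM of a gene divided by its exon length in kb). On this scale Kcnab2, a beta subunit of Kv1 channels, was among the highest members, at 34.5 ± 6.94 in B6 and 32.03 ± 1.81 in D2 (SD, n = 5 each). Kcnd2, the Kv4 subunit of the A current, stood at 29.7 ± 0.347 in B6 and 27.6 ± 1.30 in D2. Kcnt1, the sodium-activated Slack channel, was at 29.8 ± 1.78 in B6 and did not differ from Kcnd2 beyond its spread, and in B6 both lay within the spread of Kcnab2. Kcnf1, a silent subunit, stood at rank 8 of 71 in B6 (23.8 ± 3.83) and rank 11 in D2 (17.8 ± 1.11). The range was wide, down to Kcne1 at 0.0032 in B6 and 0.0023 in D2.

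**Figure D1:**
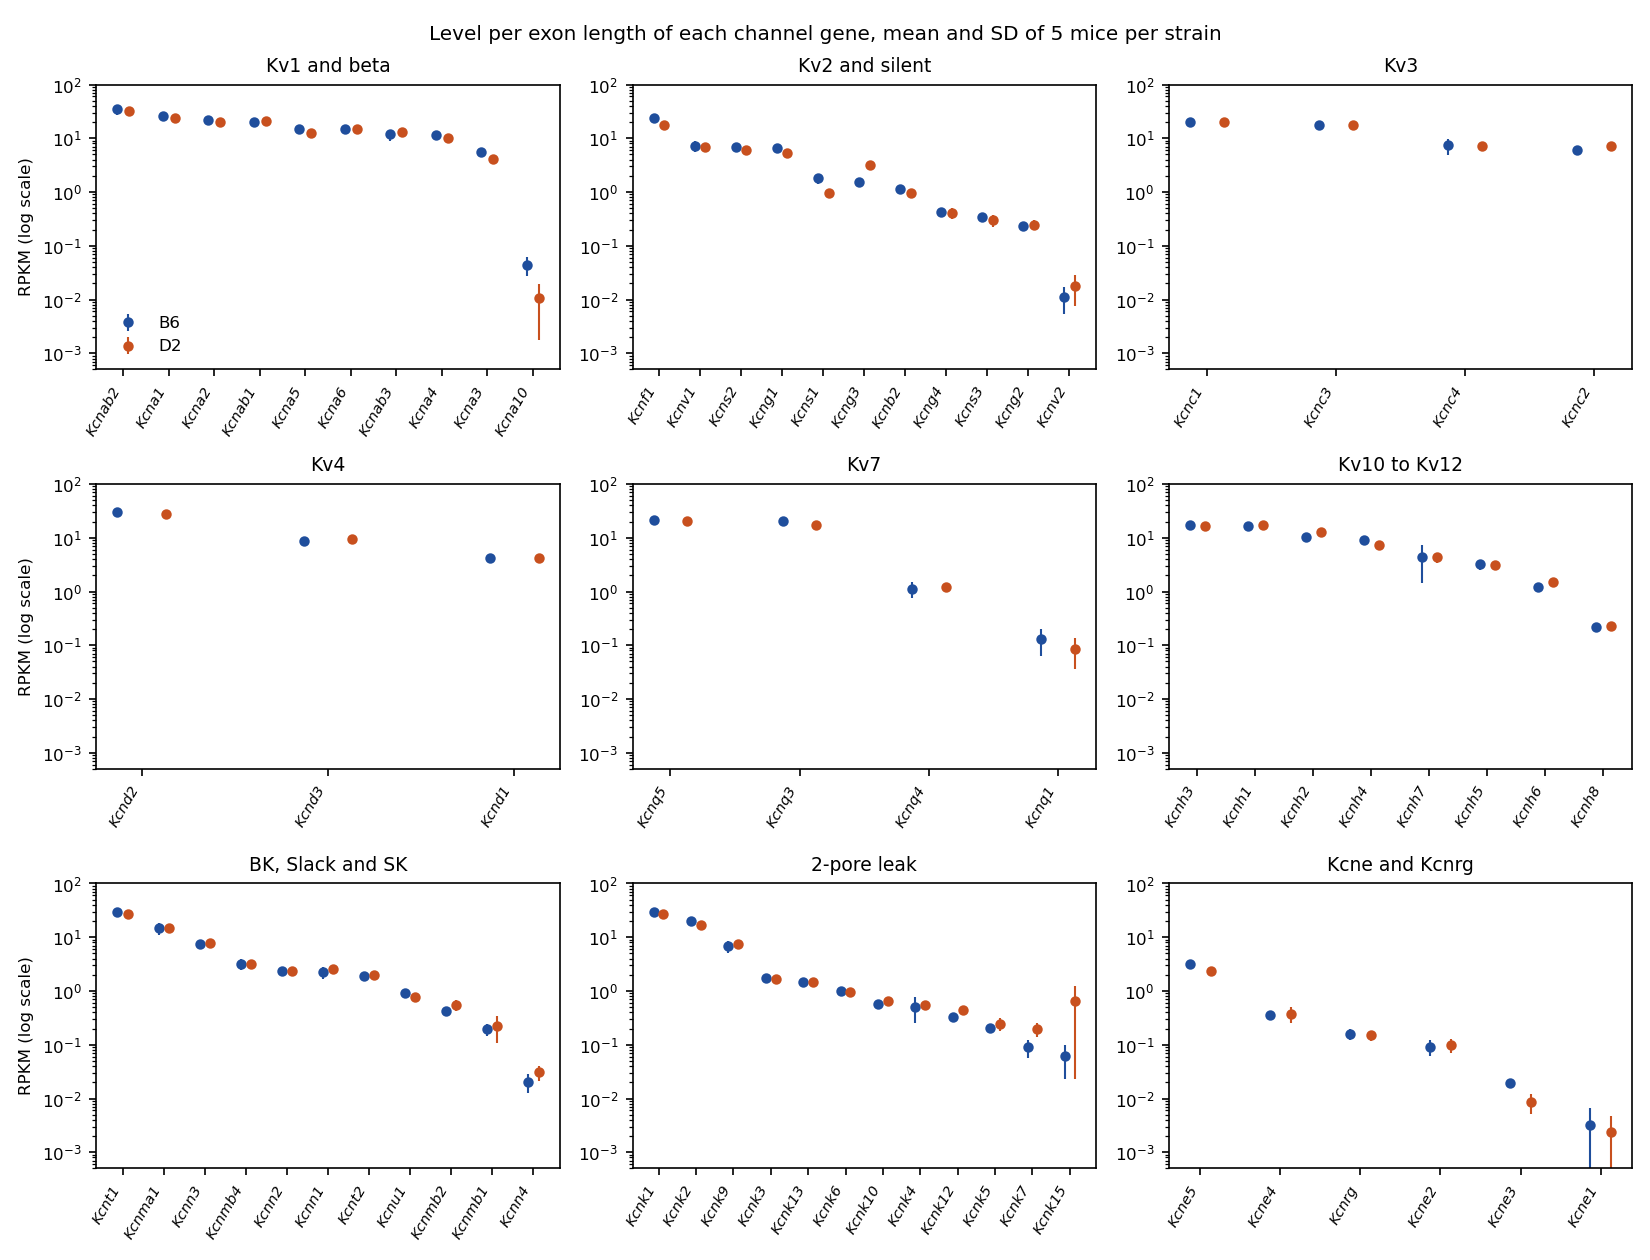
Level per exon length of 69 channel genes in RPKM (log axis), by family, as mean and SD of 5 B6 (blue) and 5 D2 (orange) mice. Kcnab2 is near the top in both strains at 34.5 and 32.03, and most of the accessory Kcne genes are among the lowest.

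Between the strains, 18 of the 71 channel genes (25.4%) were called at an adjusted p under 0.05 by edgeR, against 18.3% of all genes. Of these, 6 were higher in D2 (8.45% of members, 8.5% of all genes) and 12 lower (16.9% of members, 9.83% of all genes). DESeq2 called 23 members (32.4%) against 21.5% of all genes. Of these, 7 were higher in D2 (9.86% against 10.2%) and 16 lower (22.5% against 11.3%). Channel genes are more abundant than most rows of the table. Among genes with a mean of at least 100 normalized counts, edgeR with all mice called 14 of 60 members (23.3%) and 23.8% of all genes. In that fit the share called was near the background, and for the other fits this comparison was not made. Strain values did not overlap for 12 members (16.9%), against 16% of all genes. The median log2 fold change, D2 over B6, was -0.03 for members and 0.00 for all genes.

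Without B6 replicates 3 and 5, 26 members were called (36.6%), 17 higher (23.9%) and 9 lower (12.7%) in D2. Of all genes 19.2% were called, 9.68% higher and 9.54% lower. The split turned, since most members called with all mice were lower in D2. Called both ways were 13 members, among them Kcng3, Kcnh2, Kcnh6, Kcnk12 and Kcnk15 higher in D2, and Kcns1, Kcnf1, Kcnq3, Kcnh4, Kcnk2 and Kcne5 lower. Of the 13, 11 were also called by DESeq2, with a cortex marker covariate and in all 10 fits that drop a single mouse, the exceptions being Kcnk12 and Kcne5. The covariate was the mean log2 level of the 8 cortex markers. With it 28 members were called (39.4%), 7 higher (9.86%) and 21 lower (29.6%), and all 18 were kept. Of all genes 26% were called with it (13% higher and 13% lower).

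**Figure D2:**
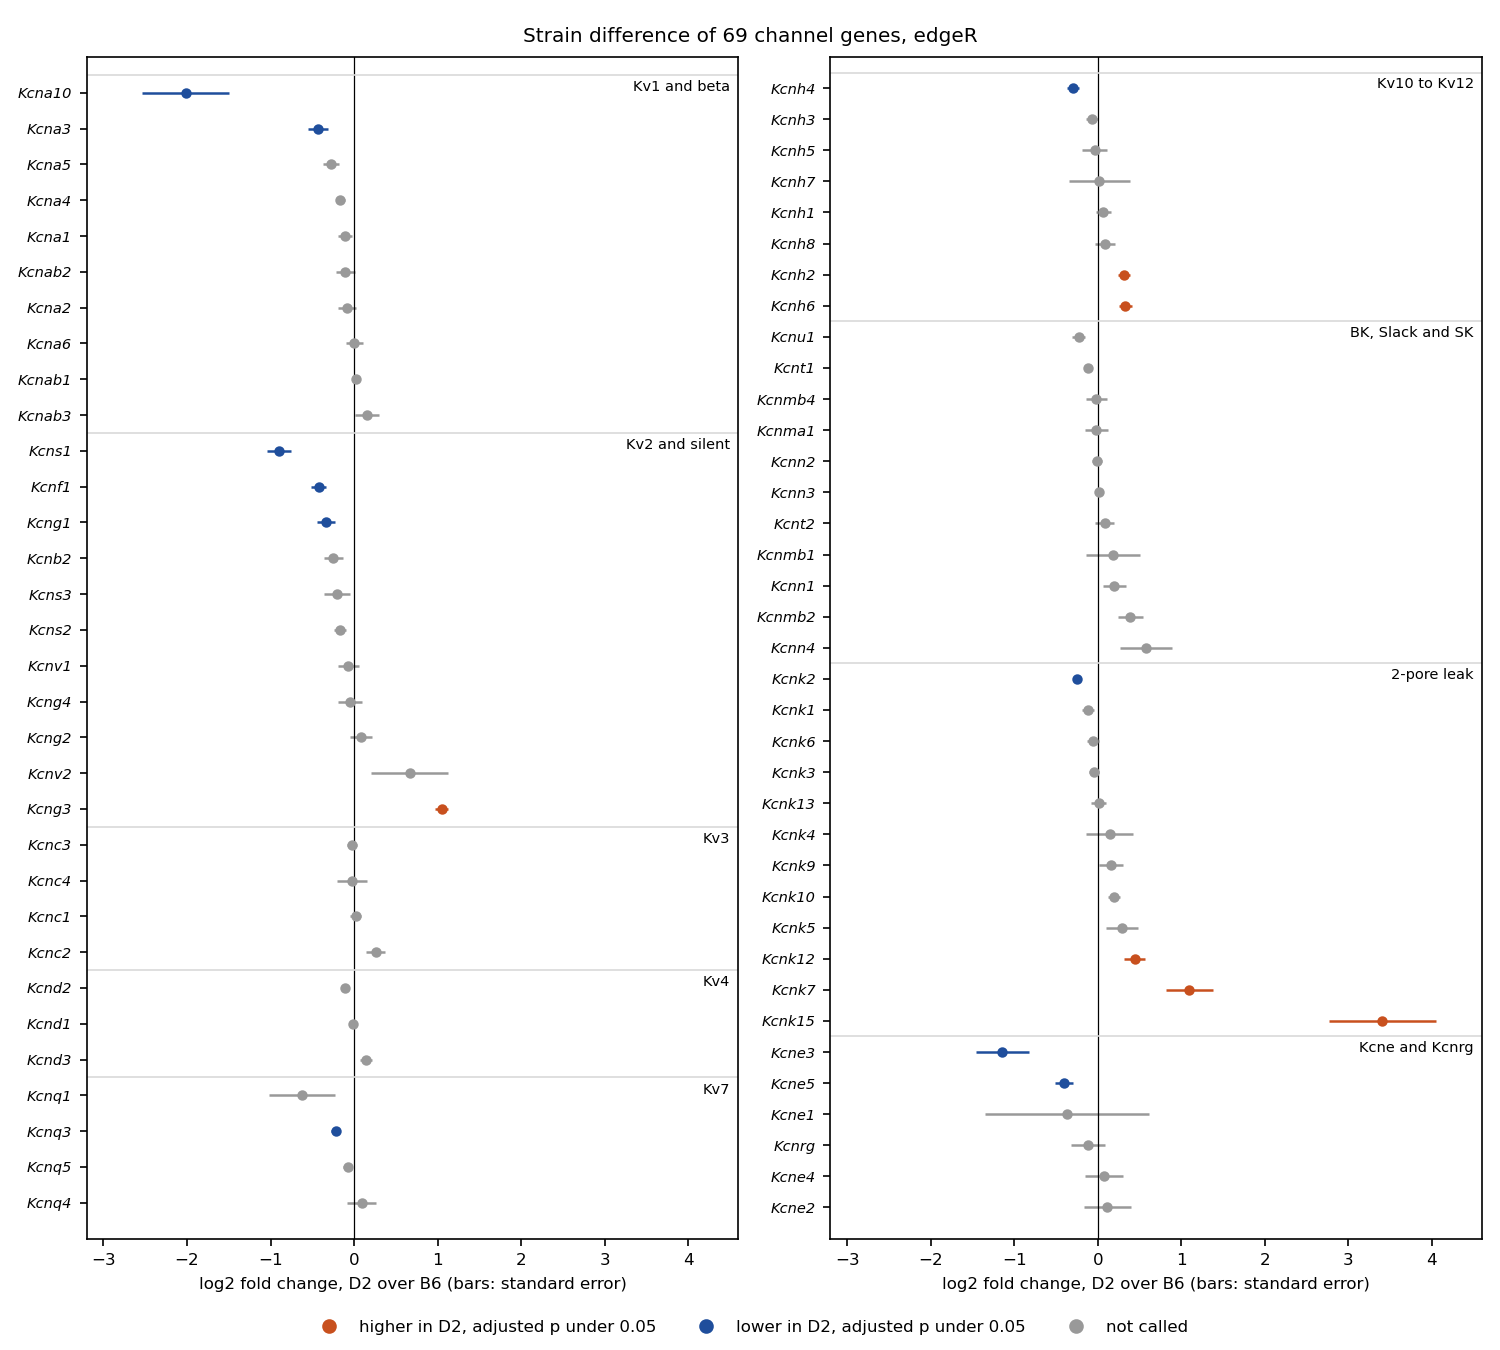
Log2 fold change, D2 over B6, of 69 channel genes from edgeR with all 10 mice, grouped by family, with bars of 1 standard error. The 6 genes higher in D2 are orange, the 10 lower are blue, and grey genes were not called.

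The silent partners of the Kv2 channels, which carry the slow delayed rectifier of many neurons, held 4 of the 18 called genes. Kcns1, Kcnf1 and Kcng1 were lower in D2, while Kcng3 was higher. These partners do not form channels alone and change the gating of Kv2 channels when they join them. Of 10 such genes 1 was higher and 3 lower in D2, against 8.5% and 9.83% of all genes. Without B6 replicates 3 and 5, 1 was higher and 2 lower, against 9.68% and 9.54%. With so few genes these counts are a description only.

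Kcng3 (chr17:83892840-83939455, minus strand), a silent subunit of the Kv6 family, read 685, 687, 762, 686 and 704 normalized counts in B6. In D2 it read 1287, 1533, 1590.0, 1612 and 1268, so that the lowest D2 mouse was far above the highest B6 mouse. The log2 fold change was 1.05 ± 0.08 (SE, edgeR, adjusted p = 7.27e-07), and 1.09 without B6 replicates 3 and 5 (adjusted p = 3.1e-06). The gene stayed low per length, at 1.52 ± 0.0713 RPKM in B6 and 3.15 ± 0.362 in D2, ranks 44 and 37 of 71.

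Kcns1 (chr2:164005539-164013227, minus strand), of the silent Kv9 family, read 499, 512, 731, 530.3 and 765 normalized counts in B6 and 281, 318, 402, 342 and 289 in D2. The strains did not overlap, and B6 replicates 3 and 5 were again the highest. The log2 fold change was -0.89 ± 0.14 (SE, edgeR, adjusted p = 0.000696), and -0.65 without them (adjusted p = 0.0013). Kcnf1, the silent Kv5 subunit and the most abundant of these partners per length, read 10685, 11088, 14314, 10878 and 14658 in B6 and 8805, 9275, 10138, 8702 and 9062 in D2. Here too every D2 mouse was below every B6 mouse, with a log2 fold change of -0.42 ± 0.09 (adjusted p = 0.00568) that became -0.24 (adjusted p = 0.0028) without the 2 libraries. Kcng1 read 3237, 3149, 4171, 3686 and 4078 in B6 and 2718, 2863, 2332, 3453 and 3169 in D2. Its strains overlapped, its log2 fold change was -0.33 ± 0.11 (adjusted p = 0.0461), and it was called in 3 of 10 fits that left out 1 mouse and not without B6 replicates 3 and 5 (-0.21, adjusted p = 0.199).

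Kcnk15, Kcns1 and Kcng1 lie on distal chromosome 2. Kcnk15 and Kcns1 are 303374 bases apart, and Kcng1 is farther off (chr2:168102031-168123656, minus strand). All 3 were called, Kcnk15 higher and the other 2 lower in D2, while Kcnt1, Kcnh7 and Kcna4, nearer the start of the chromosome, were not. Part of this split lies at the threshold. Kcng1 was just under it (edgeR, adjusted p = 0.0461) and Kcna4 just over it (-0.17, adjusted p = 0.0506), and DESeq2 called Kcna4 (adjusted p = 0.04). Within 500000 bases on either side, 5 of 20 other genes tested around Kcnk15 were called, 8 of 23 around Kcns1 and 0 of 17 around Kcng1, against 18.3% of all genes. The windows of Kcnk15 and Kcns1 overlap, so that their counts share genes.

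**Figure D3:**
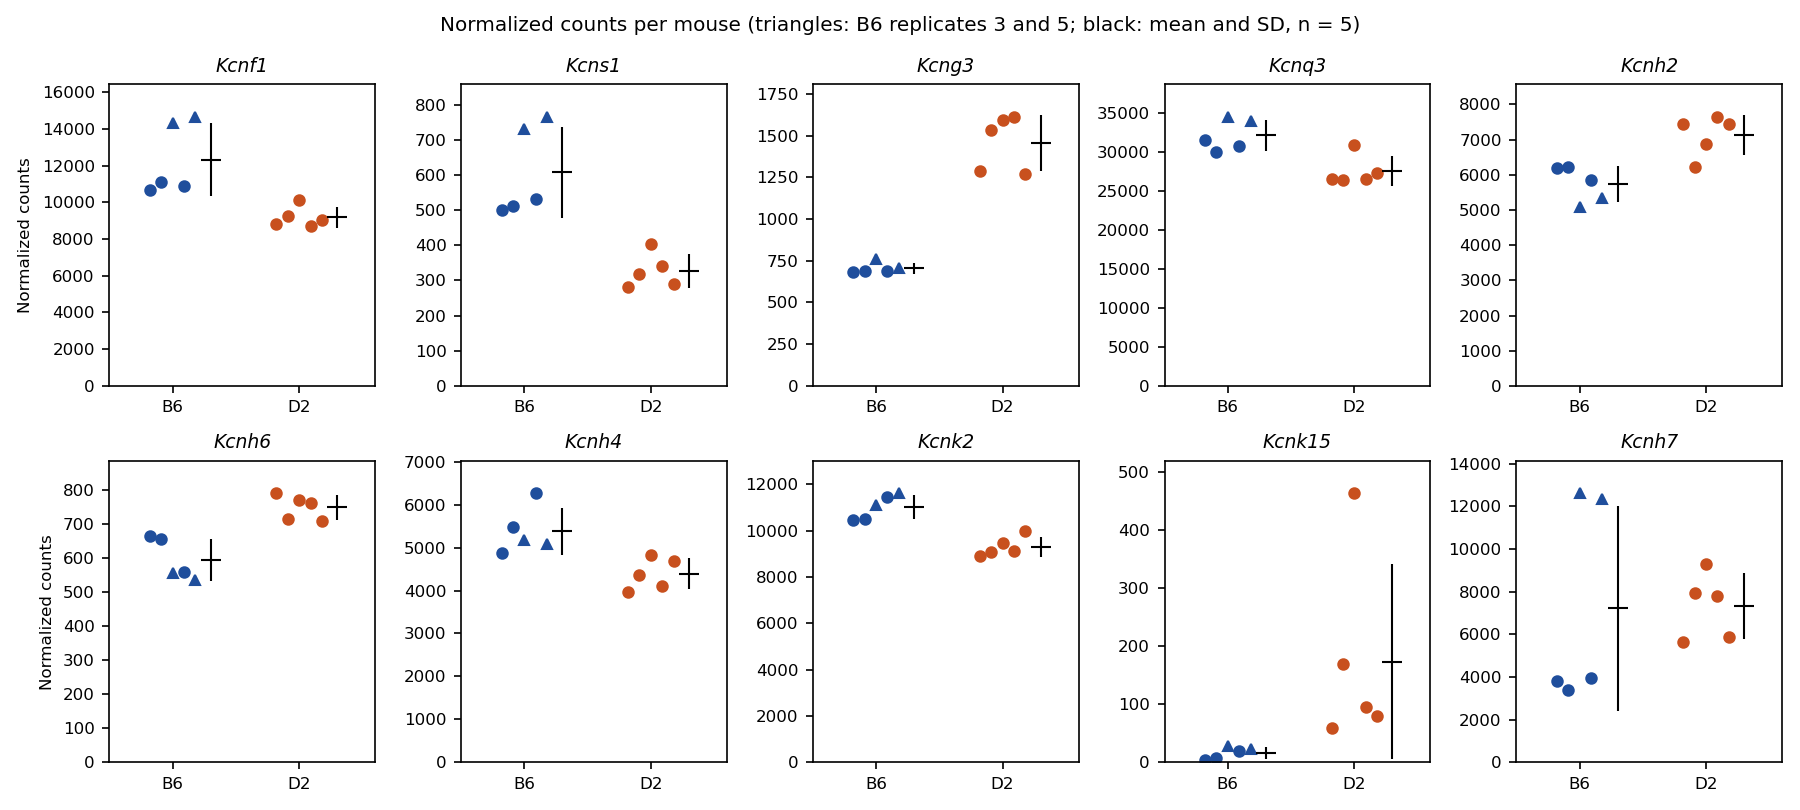
Normalized counts of 10 channel genes in each mouse, B6 in blue and D2 in orange, with triangles for B6 replicates 3 and 5 and black marks for mean and SD (n = 5). Kcnf1 and Kcns1 are lower and Kcng3 is higher in every D2 mouse, while Kcnh7 is spread by the 2 triangles.

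Kcnq3, a subunit of the neuronal M channel, was slightly lower in D2. The M current is closed by muscarinic receptors and limits bursts of firing. Kcnq3 (chr15:65858236-66158491, minus strand) read 31537, 30026, 34544, 30757 and 33992 normalized counts in B6 and 26567, 26480.0, 30927, 26524 and 27368 in D2. D2 replicate 3 was within the B6 range and the other 4 D2 mice were below it. Kcnq3 had a log2 fold change of -0.22 ± 0.05 (edgeR, adjusted p = 0.0117), and -0.16 without the 2 libraries (adjusted p = 0.046).

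In the Kv10 to Kv12 group, 2 erg genes were higher and 1 Kv12 gene lower in D2 of 8 genes, against 8.5% and 9.83% of all genes. Without B6 replicates 3 and 5, 4 were higher and 1 lower, against 9.68% and 9.54% of all genes. Kcnh2, the erg subunit also known for repolarizing the heart, read 6202, 6222, 5089, 5860.0 and 5347 normalized counts in B6 and 7451, 6233, 6881, 7648 and 7453 in D2. The lowest D2 mouse was just above the highest B6 mouse, and the lowest B6 values were those of replicates 3 and 5. Kcnh2 had a log2 fold change of 0.31 ± 0.07 (SE, edgeR, adjusted p = 0.00583), and 0.23 without them (adjusted p = 0.0212). Kcnh6, a second erg subunit, read 665, 658, 557, 560.2 and 536 in B6 and 791, 715, 771, 761 and 709 in D2, also without overlap. Its log2 fold change was 0.33 ± 0.08 (adjusted p = 0.00743), and 0.25 without the 2 libraries (adjusted p = 0.0384). Kcnh4, a Kv12 subunit, read 4878, 5480.0, 5182, 6262 and 5071 in B6 and 3969, 4355, 4833, 4116 and 4686 in D2. Its groups were separate by a narrow margin, with a log2 fold change of -0.29 ± 0.07 (adjusted p = 0.0123) and -0.34 without the 2 libraries (adjusted p = 0.00968).

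The third erg gene, Kcnh7, had the largest coefficient of variation in B6 (66.5%) of the 60 members with a mean of at least 100 normalized counts. It read 3796, 3397, 12617, 3965 and 12369 normalized counts in B6 and 5655, 7953, 9318, 7790.0 and 5864 in D2. All 5 D2 mice lay between the low B6 mice and the high pair, replicates 3 and 5. With all mice the log2 fold change was 0.02 ± 0.37 (SE, edgeR, adjusted p = 0.982), and without the pair it was 0.97 (adjusted p = 0.000367). With the cortex marker level as a covariate it was -0.05 (adjusted p = 0.678). The value for Kcnh7 thus depended on which B6 mice and which terms entered the fit.

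Of the 12 leak channel genes measured, 3 were higher and 1 lower in D2 (8.5% and 9.83% of all genes), and without B6 replicates 3 and 5, 5 were higher and 1 lower (9.68% and 9.54% of all genes). Kcnk2 (chr1:188940126-189134470, minus strand), the TREK channel opened by stretch, fatty acids and volatile anaesthetics, was the abundant member that was lower. It read 10485, 10505, 11101, 11467 and 11619 normalized counts in B6 and 8907, 9095, 9487, 9114 and 9994 in D2. The strains did not overlap, and B6 replicates 3 and 5 were not set apart from replicate 4. The log2 fold change was -0.24 ± 0.04 (SE, edgeR, adjusted p = 0.00115), and -0.22 without them (adjusted p = 0.00489). An antisense transcript, A430027H14Rik, overlaps 14.6% of the Kcnk2 exon bases and was also lower (-0.40, adjusted p = 0.0382), called in 4 of the 10 fits that drop a single mouse and not with total-count scaling (adjusted p = 0.0599).

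Kcnk15, a TASK relative that gives no current alone, had the largest fitted change of the members at a very low level. It had 4, 7, 24, 19 and 23 reads in B6 and 64, 174, 491, 102 and 79 in D2. The lowest D2 mouse exceeded the highest B6 mouse, and D2 replicate 3 was far above the other D2 mice. The fitted log2 fold change was 3.41 ± 0.64 (edgeR, adjusted p = 0.00215) and ranged from 2.62 to 3.66 over the fits that drop a single mouse. Without B6 replicates 3 and 5 it was 4.06 (adjusted p = 0.00388). Its exons overlap those of Rims4 on the opposite strand over 19.8% of their bases, and Rims4, which is much more abundant, was not called (-0.29, adjusted p = 0.128). Whether reads were assigned by strand is not stated in the sources used here.

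Kcnk12, a THIK channel, read 244, 234, 317, 252 and 333 in B6 and 336, 313, 418, 384 and 429 in D2, with a small overlap. Its log2 fold change was 0.44 ± 0.13 (edgeR, adjusted p = 0.0267), and 0.62 without B6 replicates 3 and 5 (adjusted p = 0.00252). Leaving out B6 replicate 1, 2 or 4 or D2 replicate 3, 4 or 5 ended the call. Kcnk7 was higher in D2 with 11.4 to 24.1 normalized counts in B6 and 21.7 to 43.8 in D2 (1.10 ± 0.28, adjusted p = 0.0151), and was not called without the 2 libraries, where the change was of like size (1.03, adjusted p = 0.0526).

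The remaining called members were of low or moderate level and all lower in D2. Kcna3, the Kv1 channel known from T cells and microglia, read 1294, 1000.0, 1322, 869 and 1317 in B6 and 787, 857, 885, 984 and 776 in D2. The groups overlapped at B6 replicate 4, and the log2 fold change was -0.44 ± 0.12 (edgeR, adjusted p = 0.0215). It was -0.30 without B6 replicates 3 and 5 (adjusted p = 0.102), and leaving out D2 replicate 1 or 5 also ended the call. Kcne5, an accessory peptide, read 506, 650.5, 462, 527 and 473 in B6 and 433, 451, 334, 363 and 398 in D2, just without overlap. Its log2 fold change was -0.40 ± 0.11 (adjusted p = 0.0223), lost without D2 replicate 4, and -0.50 without the 2 libraries (adjusted p = 0.00845). Kcne3 and Kcna10 had at most 18.3 and 14.4 normalized counts in any mouse, and their fitted log2 fold changes were -1.14 ± 0.31 and -2.02 ± 0.52 (adjusted p = 0.0228 and 0.0159). Without B6 replicates 3 and 5 these were -0.94 and -1.72 (adjusted p = 0.121 and 0.0805), no longer called.

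For the BK channel, no strain difference was called with all mice. Kcnma1, its pore subunit (chr14:23339499-24064559, minus strand), read 22663, 21173, 34816, 22854 and 34107 normalized counts in B6 and 22856, 28586, 29244, 28914 and 24566 in D2. B6 replicates 3 and 5 were above all D2 mice. B6 replicates 1 and 2 were below the lowest D2 mouse, and B6 replicate 4 was almost equal to it (22854 against 22856). The log2 fold change was -0.02 ± 0.14 (SE, edgeR, adjusted p = 0.961) and turned to 0.27 without replicates 3 and 5 (adjusted p = 0.0252), while with the cortex marker covariate it was -0.10 (adjusted p = 0.0552). Kcnmb4, the beta subunit of neuronal BK channels that slows gating, read 1698, 1688, 2590.4, 1819 and 2651 in B6 and 1900.0, 2159.6, 2209.7, 2016 and 2045 in D2. It gave the same picture, with -0.02 ± 0.13 (adjusted p = 0.958) with all mice and 0.25 without the pair (adjusted p = 0.00781), and -0.09 with the covariate (adjusted p = 0.127).

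The ratio of the BK subunits differed less between the B6 libraries than either gene did. Kcnmb4 reads per Kcnma1 read were 0.0749, 0.0797, 0.0744, 0.0796 and 0.0777 in B6 and 0.0831, 0.0755, 0.0756, 0.0697 and 0.0832 in D2. The means were 0.0773 ± 0.00252 and 0.0774 ± 0.0058, and in B6 replicate 5 lay within and replicate 3 just below the range of replicates 1, 2 and 4. The two-sided exact permutation p was 1. Of the 11 BK, Slack and SK genes, 0 were called by edgeR, against 18.3% of all genes, and 3 had an unadjusted p under 0.05. DESeq2 called 1, the BK-like Kcnu1, against 21.5% of all genes. Without B6 replicates 3 and 5, 3 were higher in D2, against 9.68% of all genes. Beside Kcnma1 and Kcnmb4 these included Kcnn1, an SK channel (0.49, adjusted p = 5.81e-05). With the cortex marker covariate Kcnn1 was at 0.13 (adjusted p = 0.0627).

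**Figure D4:**
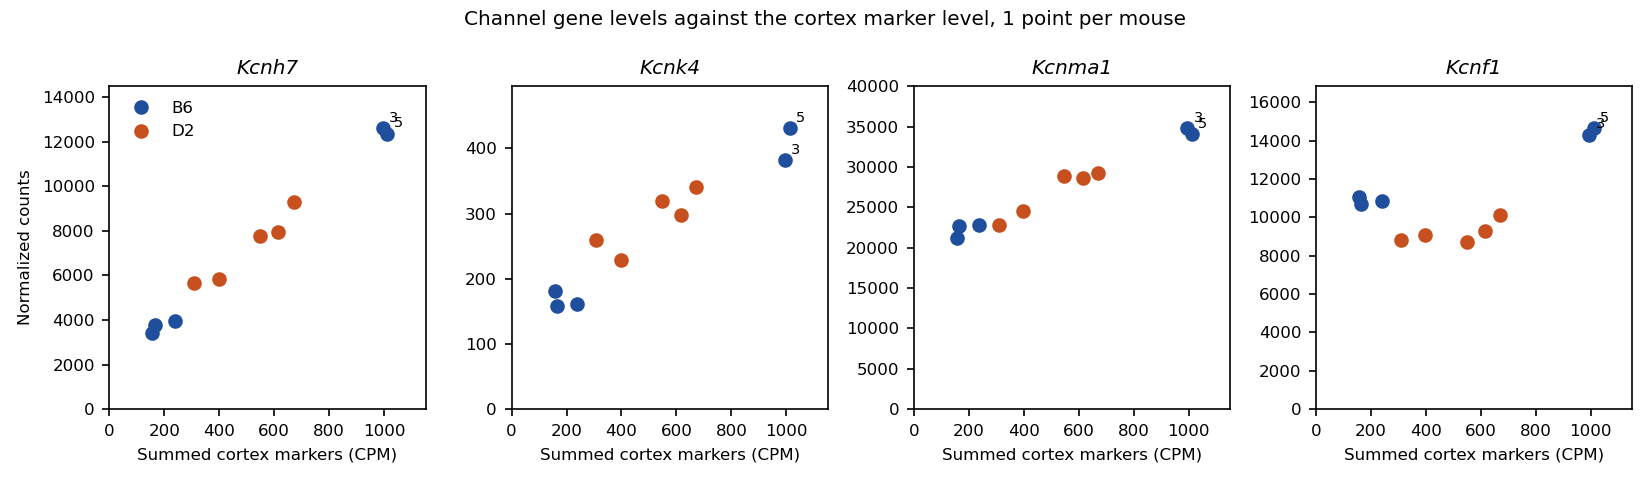
Normalized counts of Kcnh7, Kcnk4, Kcnma1 and Kcnf1 against the summed CPM of 8 cortical projection neuron markers, 1 point per mouse (B6 blue, D2 orange, B6 replicates 3 and 5 numbered). Kcnh7, Kcnk4 and Kcnma1 rise with the marker sum across both strains. For Kcnf1, B6 replicates 3 and 5 are also the highest B6 points, and the D2 points all lie below the B6 points.

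The Kv3 and Kv4 families hold so few genes that their counts are a description only. Kv3 subunits let neurons fire at high rates. With all mice edgeR and DESeq2 called 0 of 4 Kv3 genes (1 at an unadjusted p under 0.05), against 18.3% and 21.5% of all genes. Without B6 replicates 3 and 5, 2 were higher in D2, against 9.68% of all genes. These were Kcnc2 (0.38, adjusted p = 0.0403) and Kcnc4 (0.38, adjusted p = 0.005). With the cortex marker covariate these were 0.24 and -0.10 (adjusted p = 0.116 and 0.505). Kcnd2 read 18434, 18377, 18616, 18921 and 18481 normalized counts in B6, the narrowest spread of the abundant members, and 16910.5, 16257, 18468, 17112 and 17492 in D2. Only D2 replicate 3 reached the B6 range. Kcnd2 had a log2 fold change of -0.11 ± 0.04 (edgeR, adjusted p = 0.0568), just over the threshold, and DESeq2 called it (adjusted p = 0.0396). Without B6 replicates 3 and 5 it was again -0.11 (adjusted p = 0.0921). In all, 0 of 3 Kv4 genes were called by edgeR (1 at an unadjusted p under 0.05) and 1 by DESeq2, against 18.3% and 21.5% of all genes. 

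The axonal Kv1 subunits overlapped between the strains. Kcna2 read 27549.8, 28217, 37651, 25476 and 37201 normalized counts in B6 and 31814, 27801, 31729, 27646 and 28248 in D2. Kcna1, its usual partner, read 11775, 11889.6, 15495, 12038 and 15018 in B6 and 12426, 11476, 13346, 11938 and 12114 in D2. Both were highest in B6 replicates 3 and 5, whose values lay above every D2 mouse. Log2 fold changes were -0.08 ± 0.11 for Kcna2 and -0.11 ± 0.08 for Kcna1 (SE, edgeR, adjusted p = 0.673 and 0.417). Without the 2 libraries they were 0.12 and 0.04 (adjusted p = 0.19 and 0.609). With the cortex marker covariate Kcna1 was called (-0.16, adjusted p = 0.0201) and Kcna2 was not (-0.13, adjusted p = 0.186). Of the 10 Kv1 and beta genes, 2 were called with all mice, both lower in D2, against 18.3% of all genes called and 9.83% lower. DESeq2 called 4 and the fit with the cortex marker covariate 6, against 21.5% and 26% of all genes.

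Kcnb2, a Kv2 pore subunit, read 3199, 2777, 2565, 2387 and 2230.1 in B6 and 2691, 1848, 2417, 2198 and 1936 in D2. Kcnd3, the other abundant Kv4 subunit, read 10684, 10508, 8345, 8749 and 8529 in B6 and 11055, 10315, 9905, 10743 and 9813 in D2. The strains overlapped for both, and for Kcnd3 B6 replicates 3 and 5 were the lowest in B6. Neither was called with all mice (edgeR, -0.25 ± 0.11, adjusted p = 0.169 for Kcnb2 and 0.15 ± 0.07, adjusted p = 0.201 for Kcnd3). With the cortex marker covariate Kcnd3 was called higher in D2 (0.20, adjusted p = 0.00427). Kcnd3 was not called without B6 replicates 3 and 5 (0.05, edgeR, adjusted p = 0.648) or by DESeq2 (adjusted p = 0.187).

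Kcnk9 and Kcnk3 encode TASK leak channels, which close in acid. Kcnk9 read 9124, 7499, 12468, 7933 and 12659 in B6 and 10282, 12060.1, 10291, 12753 and 10158 in D2. Kcnk3 read 1705, 1758, 1890.1, 1577 and 1709.6 in B6 and 1796, 1546, 1662, 1648 and 1741 in D2. Kcnk9 was split within B6 by replicates 3 and 5 and was called without them (0.44, adjusted p = 0.00278), while its log2 fold change was 0.16 ± 0.14 with all mice (SE, edgeR, adjusted p = 0.518) and 0.08 with the cortex marker covariate (adjusted p = 0.409). Kcnk3 varied little and had a log2 fold change of -0.04 ± 0.06 (adjusted p = 0.702).

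The sodium-activated channels overlapped between strains. Kcnt1 read 33442, 33621, 36132, 38369 and 36855 in B6 and 31094, 32561, 34686, 33193 and 32691 in D2. Kcnt2 read 2020.5, 1569.8, 2214, 1698 and 2049 in B6 and 1879, 1858, 1905, 2555 and 1908 in D2. Log2 fold changes were -0.12 ± 0.05 for Kcnt1 and 0.08 ± 0.11 for Kcnt2 (SE, edgeR, adjusted p = 0.0937 and 0.695). With the cortex marker covariate Kcnt1 was called lower in D2 (-0.14, adjusted p = 0.0163). Kcnt1 was not called without B6 replicates 3 and 5 (-0.10, edgeR, adjusted p = 0.215) or by DESeq2 (adjusted p = 0.0863).

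A total of 8 ratios between paired genes were tested, and 0 differed between strains after adjustment over the 8 (two-sided exact permutation tests, 1 at an unadjusted p under 0.05). With 5 mice against 5 the smallest p possible was 0.0079. A single ratio at that p would stay above 0.05 after adjustment over the 8. The 0 therefore does not show that the ratios are equal. Kcnd3 per Kcnd2, both subunits of the A current, was 0.505 ± 0.0651 in B6 and 0.603 ± 0.051 in D2 (log2 difference 0.26, exact permutation p = 0.0476, adjusted 0.296). The leak channel ratio of Kcnk2 to Kcnk4 was 50.3 ± 20.9 and 33.0 ± 6.45, with B6 replicates 3 and 5 at 29.1 and 27.0 and the other B6 mice between 58.0 and 71.0 (exact permutation p = 0.159). The ratios of Kcna1 to Kcna2, Kcnk9 to Kcnk3 and Kcnt2 to Kcnt1 had exact permutation p of 0.548, 0.222 and 0.214.

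B6 replicates 3 and 5 carried much of the spread of these genes. They gave the 2 highest B6 values in 40 of 71 members and the 2 lowest in 9, together 69.0%, against 41.8% of all genes. Among genes with a mean of at least 100, the shares were 71.7% of 60 members and 55.5% of 15388 genes. The median coefficient of variation of such members was 13.3% in B6 and 7.97% in D2, and that of all such genes 6.80% and 5.30%. Kcnk4, a leak channel of the TRAAK type, read 158, 181, 382, 161 and 431 in B6 and 259, 298, 341, 319.6 and 229 in D2, with B6 replicates 3 and 5 highest as for Kcnh7. Its log2 fold change was 0.14 ± 0.28 (edgeR, adjusted p = 0.801) with all mice, 0.79 without the pair (adjusted p = 0.00143) and 0.05 with the covariate (adjusted p = 0.813). The cortex marker level moved with these genes, and its part in the results was not tested beyond the fits given.

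**Figure D5:**
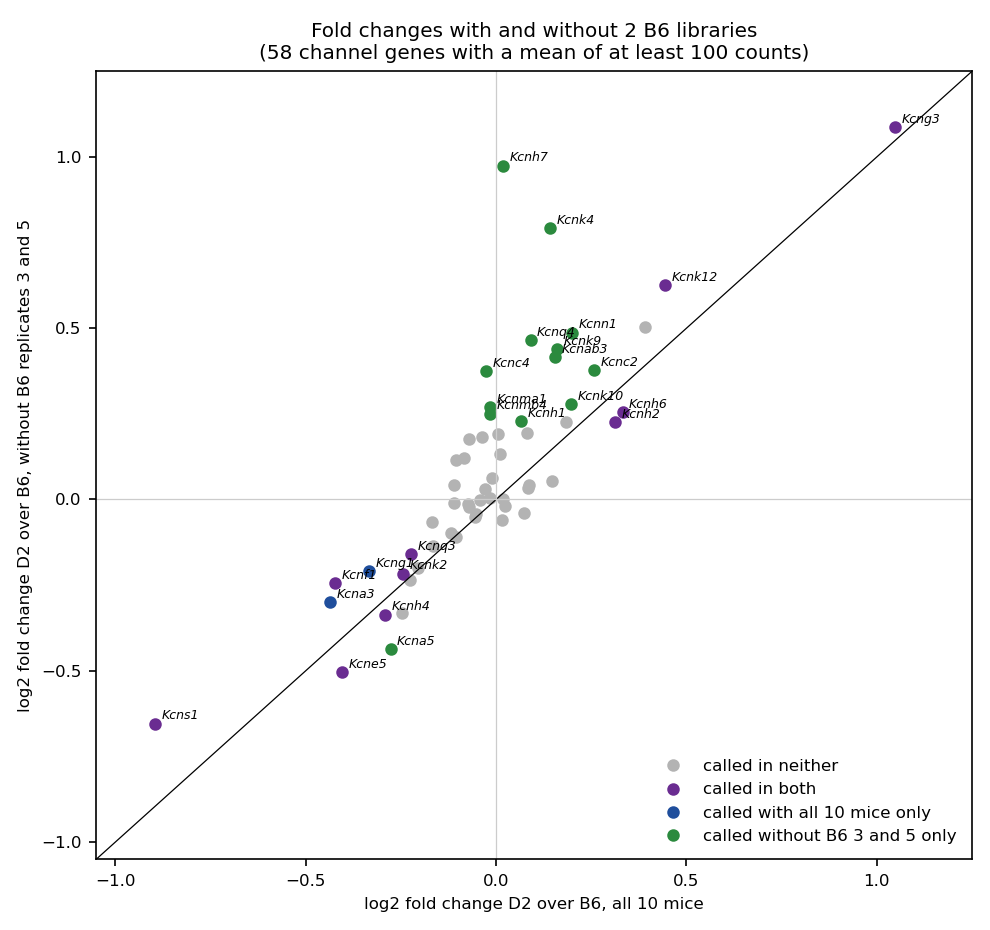
Log2 fold change, D2 over B6, of 58 channel genes with a mean of at least 100 normalized counts, with all 10 mice (horizontal) and without B6 replicates 3 and 5 (vertical), with the diagonal of equal values. Kcnh7 and Kcnk4 move from 0.02 and 0.14 to 0.97 and 0.79, while Kcng3 and Kcns1 are called either way.

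Of 25 genes whose proteins bind or anchor these channels, 24 were in the table. They comprise Kcnip and Dpp subunits of Kv4 channels, BK gamma subunits, scaffolds and axonal adhesion proteins. Dlg4, the PSD scaffold that clusters Kv1 channels, was the 1 gene called with all mice (11 at an unadjusted p under 0.05, 5 called by DESeq2). Its level was 88332 ± 3414 normalized counts in B6 and 78552 ± 1731 in D2 (SD, n = 5), a log2 fold change of -0.17 ± 0.04 (SE, edgeR, adjusted p = 0.00587), and -0.16 without B6 replicates 3 and 5 (adjusted p = 0.0133). The 1 call of 24 compares with 18.3% of all genes. Without these mice 8 of 24 partner genes were called, against 19.2% of all genes. Lower in D2 were Dlg4, Kcnip2, Dpp6, Cntnap2 and Lrrc38, a BK gamma subunit, and higher were Adam22, Amigo1, which binds Kv2 channels, and Cntn2. The median log2 fold change of each channel family with all mice lay between -0.24 (Kcne and Kcnrg) and 0.15 (2-pore leak).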

How the data were processed

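The authors sequenced poly-A libraries of the NAc, 5 from B6 and 5 from D2 males. What they deposited is a table of unnormalized counts for each gene. Per the labels, reads were aligned with STAR 2.7.10b to GRCm39, handled with SAMtools 1.6 and counted with featureCounts, and genes with a median of 0 had been removed. Trimming used fastp, and the strand setting of the counting is not given in the sources used here. Gene symbols and positions came from GENCODE M39 on the same build, which held 29519 of the 29883 Ensembl identifiers.

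The counts as deposited were fitted with edgeR 4.0.16 in R 4.3.3 (TMM normalization, quasi-likelihood F test, strain as the factor), p-values being adjusted over the 29883 genes by Benjamini-Hochberg and the threshold set at 0.05. The standard error is the absolute log2 fold change over the root of F. RPKM used the union of a gene's exons as its length. Normalized counts are counts divided by the TMM-scaled library size and multiplied by its mean. On simulated counts with 200 genes changed by a log2 fold of 1, edgeR recovered 192 with 12 false calls and DESeq2 196 with 36. Most called members changed by less than that, and the likeness of B6 replicates 3 and 5 was not simulated. Ratios of subunits were tested by two-sided exact permutation over 252 assignments of mice. Alternatives were DESeq2 1.42.0, other scalings and filters, a cortex marker covariate, the replicate number as a block, leaving out each mouse, and leaving out B6 replicates 3 and 5 together, the last chosen after the data were seen.

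Members, marker lists and partner lists were chosen with earlier results of these data known. Named with every mouse's value were called members with a mean of at least 100 normalized counts, up to 12 in each direction by size of change, with Kcnma1, Kcnmb4, Kcnq3, Kcnd2, Kcna2, Kcnk2 and the subunits of the 8 ratios named whatever their result. Values of some members, and ratios that need them, are not reported here, while counts over all members include them. Kcnk15, Kcnh7, Kcnk7, Kcne3, Kcna10, Kcna4, Kcnn1, Kcnc2, Kcnc4 and Kcnu1 were named after their values were seen. Closest in count were B6 replicates 3 and 5, which still differed beyond sampling noise, and all 10 libraries were kept as separate mice. Depth of 96977262 to 116776714 reads makes counting error small beside the spread between mice for all but the lowest genes.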

Additional observations from a re-analysis of the deposited data

Results flagged for a closer look

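For each named gene and ratio, the highest and lowest of the 5 mice of a strain were compared with the rest. Of 76 groups tested, 5 had a mouse whose gap to the next, divided by the range of the group, was above 0.71 (Dixon's critical value), and chance alone flags about 1 in 20 groups. Kcng3 was high in B6 replicate 3 (762 normalized counts), still far below every D2 mouse. Kcnk15 was high in D2 replicate 3 (464 normalized counts), and Kcnq3 was high in the same mouse (30927 normalized counts). Kcnt2, a sodium-activated potassium channel, was high in D2 replicate 4 (2555 normalized counts), and so was its ratio to Kcnt1 there (0.0770). The cause of these values was not tested.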

How the results depend on the processing

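Against 18 of 71 channel genes called with all mice, 14 to 19 of the 71 were called in fits that drop a single mouse (higher in D2 5 to 7, lower 9 to 14), 28 with the cortex marker covariate and 9 at an adjusted p of 0.01. Those lower in D2 numbered 21 with the covariate and 5 at 0.01, and those higher numbered 17 without B6 replicates 3 and 5. The all-gene count fell from 5478 to 3415 at 0.01 and lay between 4636 and 5676 with each mouse left out. Partner genes called, 1 with all mice, were 5 by DESeq2, 2 by total-count scaling, 2 by either count filter, 11 with the covariate, 8 without B6 replicates 3 and 5, and 1 to 5 with each mouse left out. Kcnma1 (0.27) and Kcnmb4 (0.25) turned in direction without B6 replicates 3 and 5. The log2 ratio difference of Kcnmb4 to Kcnma1, near 0 throughout, was -0.0407 by medians, -0.0144 without B6 replicates 3 and 5 and between -0.0262 and 0.0376 with each mouse left out. That of Kcna1 to Kcna2 lay between -0.0541 and 0.00265. The cause was not tested.

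Same-numbered mice did not deviate together (correlations over 15388 genes from -0.407 to 0.368), so the numbers only name mice. With the replicate block, 18 channel genes (6 higher in D2), 2 partner genes and 4731 of all genes were called, with Kcna3 lost and Kcnb2 gained. Among results for single genes, 546 alternatives kept the side of the threshold, 12 gained and 36 lost the call, and 2 were counted as reversed. The 546 include changes of sign where a gene was not called. Without B6 replicates 3 and 5, Kcna1 went from -0.11 to 0.04 and Kcna2 from -0.08 to 0.12. Genes under 100 counts are limited by depth.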
